A study of Arabidopsis thaliana with 12 samples.

Results

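The 10 core circadian clock genes of Arabidopsis thaliana were followed through 12 RNA-seq libraries of wild-type and Polycomb mutant seedlings. They were LHY (AT1G01060), CCA1 (AT2G46830), PRR9 (AT2G46790), PRR7 (AT5G02810), PRR5 (AT5G24470), TOC1 (AT5G61380), ELF3 (AT2G25930), ELF4 (AT2G40080), LUX (AT3G46640) and GI (AT1G22770), 10 of the 33602 genes in the expression table. The genes were picked by name for their place in the clock, and the set was selected on these data in one respect, since a high level of LHY in clf28swn7 was already known. Each comparison with clf28swn7, and each of LHY with WT, is therefore given as a description with no test. All 10 genes reached the minimum of 1 FPKM in at least 3 libraries that was asked of a tested gene. LHY and CCA1 reached it through mutant libraries, as no WT library was above 0.760 FPKM for either gene. CCA1 is therefore set against WT with no test as well.

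The Arabidopsis clock is a ring of transcription factors that repress each other in turn over the day. LHY and CCA1 are MYB-like factors that peak around dawn and repress genes of the evening. The pseudo-response regulators PRR9, PRR7, PRR5 and TOC1 appear one after the other from morning to dusk and repress LHY and CCA1. ELF3, ELF4 and LUX form the evening complex, a repressor that acts in the early night on PRR9, PRR7 and LUX itself, and GI is a dusk protein that stabilises the photoreceptor ZTL. As these transcripts rise and fall every day, the hour at which seedlings are collected sets much of their level.

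Whole Col-0 seedlings had been grown on MS agar with 1% sucrose at 22 °C under long days of 16 h light and 8 h dark, and were collected at 10 days after germination (DAG), in 3 biological replicates per genotype. WT carried no mutation. The clf28swn7 mutant lacks CLF and SWN, the methyltransferases of Polycomb repressive complex PRC2 that deposit H3K27me3. The emf1-2 mutant, given as emf1 in the sample labels, lacks EMF1, a plant Polycomb protein, and ring1ab is a knockdown of the PRC1 proteins RING1A and RING1B that keeps some RING1 activity. The study describes clf28swn7 and emf1-2 as arrested in the shoot before vegetative growth and ring1ab as a weak mutant with leaves. It also describes a stunted root in clf28swn7 and a WT-like root in emf1-2. The hour of harvest is not given in the sources used here. A shift of clock phase, a difference in the hour of collection and a difference in the level around the whole day cannot be told apart from 1 time point, and in whole seedlings fewer cells of a type and less RNA per cell cannot be told apart either.

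Levels are given in FPKM, the number of fragments scaled to the exon length of a gene and to the size of its library, so that levels can be set side by side between genes. Differences between genotypes were taken as log2(FPKM + 1), mutant minus WT, which understates the change of genes with a low FPKM, and tested with limma over 21227 genes. A gene was called where it differed by 1 or more and had an unadjusted p below 0.05. Depth, estimated from single-exon genes, was 18500000 to 20300000 fragments in WT, 14200000 to 15000000 in clf28swn7, 19000000 to 20300000 in emf1-2 and 18900000 to 21700000 in ring1ab. The targeted genes fitted the labels in part, with CLF at 0.301 ± 0.183 FPKM in clf28swn7 against 8.90 ± 0.819 in WT and RING1B at 0.554 ± 0.265 in ring1ab against 7.07 ± 0.923 (SD, n = 3). SWN was at 3.59 FPKM in clf28swn7 against 16.4 in WT. EMF1 was higher in the libraries labelled emf1-2 (50.2 against 8.05 FPKM) and RING1A in those labelled ring1ab (188 against 4.75 FPKM), which gives no check of those labels by level. The levels of tissue markers differed as well. The sum of 5 leaf markers was 13000 to 13800 FPKM in WT, 2530 to 3030 in clf28swn7, 2580 to 3230 in emf1-2 and 8770 to 11200 in ring1ab, and that of 5 seed storage markers was 2.17 to 10.3 in WT, 25700 to 27200 in clf28swn7, 241 to 596 in emf1-2 and 9880 to 17400 in ring1ab. The sum of 6 root markers was 87.2 to 104 in WT, 31.1 to 41.0 in clf28swn7, 10.7 to 23.2 in emf1-2 and 88.4 to 112 in ring1ab, and that of 5 flower markers was 4.42 to 7.17, 329 to 337, 688 to 769 and 23.1 to 35.4 in the same order. Most of the root sum was CASP1, at 64.3 FPKM in WT, and single root markers went other ways, with NRT2.1 at 0.124 FPKM in WT, 6.13 in clf28swn7 and 1.61 in emf1-2, and WER at 2.79 in WT and 2.94 in clf28swn7. No marker was at 0 in every library of a genotype. The part of tissue composition in the clock gene levels was not tested.

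The sequences just upstream of the clock genes hold the short motifs through which clock proteins are known to act, and are shown here for the members whose levels differed most. The evening element AAAATATCT and the CCA1-binding site AAAAATCT are bound by LHY, CCA1 and their REVEILLE relatives, the G-box CACGTG is bound by bZIP and bHLH factors, and GATACG or GATTCG is bound by LUX. Each motif was searched on both strands in the 250 bases before the annotated start of each gene in RefSeq TAIR10.1, and no match shared bases with another. Capitals mark the matches, and the sequences run 5′ to 3′ on the strand of the gene. The windows before LHY (chr1:37872-38121, minus strand), CCA1 (chr2:19245341-19245590, plus strand) and PRR9 (chr2:19232357-19232606, plus strand), the members that were highest over WT in clf28swn7, all held a G-box, and that of PRR9 held a pair of them and a LUX-binding site:
LHY: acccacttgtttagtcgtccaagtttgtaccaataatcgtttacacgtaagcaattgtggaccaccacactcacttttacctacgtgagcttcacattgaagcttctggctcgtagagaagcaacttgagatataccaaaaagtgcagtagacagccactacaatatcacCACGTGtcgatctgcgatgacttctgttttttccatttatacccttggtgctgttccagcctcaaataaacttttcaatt
CCA1: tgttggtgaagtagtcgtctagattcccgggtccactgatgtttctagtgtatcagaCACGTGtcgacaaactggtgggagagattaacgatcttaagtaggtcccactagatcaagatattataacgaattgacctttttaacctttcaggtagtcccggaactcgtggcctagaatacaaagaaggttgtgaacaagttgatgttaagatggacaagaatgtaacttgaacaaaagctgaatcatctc
PRR9: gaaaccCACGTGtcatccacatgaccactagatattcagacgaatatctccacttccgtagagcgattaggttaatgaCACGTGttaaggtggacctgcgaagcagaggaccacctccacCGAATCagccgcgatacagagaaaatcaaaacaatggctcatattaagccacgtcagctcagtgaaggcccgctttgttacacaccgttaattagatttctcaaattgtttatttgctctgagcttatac
The windows before TOC1 (chr5:24674713-24674962, plus strand) and LUX (chr3:17182792-17183041, plus strand), which were lower in clf28swn7, each held an evening element, and that of LUX held a G-box as well:
TOC1: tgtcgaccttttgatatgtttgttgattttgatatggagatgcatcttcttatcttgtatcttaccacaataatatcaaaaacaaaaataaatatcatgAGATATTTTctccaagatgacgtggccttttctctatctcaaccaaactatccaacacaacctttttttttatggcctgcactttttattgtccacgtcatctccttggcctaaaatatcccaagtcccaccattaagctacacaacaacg
LUX: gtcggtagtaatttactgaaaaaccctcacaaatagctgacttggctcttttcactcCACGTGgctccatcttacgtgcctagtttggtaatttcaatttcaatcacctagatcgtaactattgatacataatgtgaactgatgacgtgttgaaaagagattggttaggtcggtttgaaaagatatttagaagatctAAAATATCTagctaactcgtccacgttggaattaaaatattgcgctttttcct
The annotated model of PRR5 starts at its coding sequence, so only the 30 bases with its CCA1-binding site and evening element are shown (chr5:8358720-8358749, minus strand):
PRR5: tcgctAGATTTTTtctAGATATTTTctttt

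Counted over the members, an evening element was found within 250 bases before PRR5, TOC1 and LUX, 3 of 10 genes, against 2.36% of 27443 protein-coding genes. Within 1000 bases it was found before 5 of 10, ELF4 and GI being added, against 7.24% of all. A G-box was found within 250 bases before LHY, CCA1, PRR9, PRR7 and LUX, 5 of 10 genes against 6.49%, and no further member gained one within 1000 bases, where 14.8% of all genes held one. A LUX-binding site was found within 250 bases before PRR9, ELF3 and ELF4, 3 of 10 genes against 12.1%, and a CCA1-binding site before PRR5 alone among the members, against 6.69%. Within 1000 bases, a LUX-binding site was found before 8 of 10, against 39.8% of all. A CCA1-binding site was found there before LHY, PRR5 and PRR9, 3 of 10 against 21.1%. GI held none of the motifs within 250 bases. These are matches of letters, and the binding of a factor was not measured in these libraries.

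In WT the dusk and evening genes stood high, and the dawn genes LHY and CCA1 were below 1 FPKM. TOC1 was at 104.6 ± 3.15 FPKM and LUX at 101.9 ± 1.57 (SD, n = 3), followed by ELF3 at 62.1 ± 1.59, PRR7 at 57.7 ± 1.68, ELF4 at 50.2 ± 5.15 and GI at 36.5 ± 0.324. PRR5 was at 11.9 ± 0.657 FPKM, PRR9 at 1.12 ± 0.176, CCA1 at 0.614 ± 0.145 and LHY at 0.372 ± 0.0806. TOC1 and LUX overlapped over the WT libraries, and no other neighbours in this order did. LHY rested on an estimated 19.3 to 29 fragments per WT library and CCA1 on 24.2 to 38.2, so that their WT levels are the least precise of the set.

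**Figure D1:**
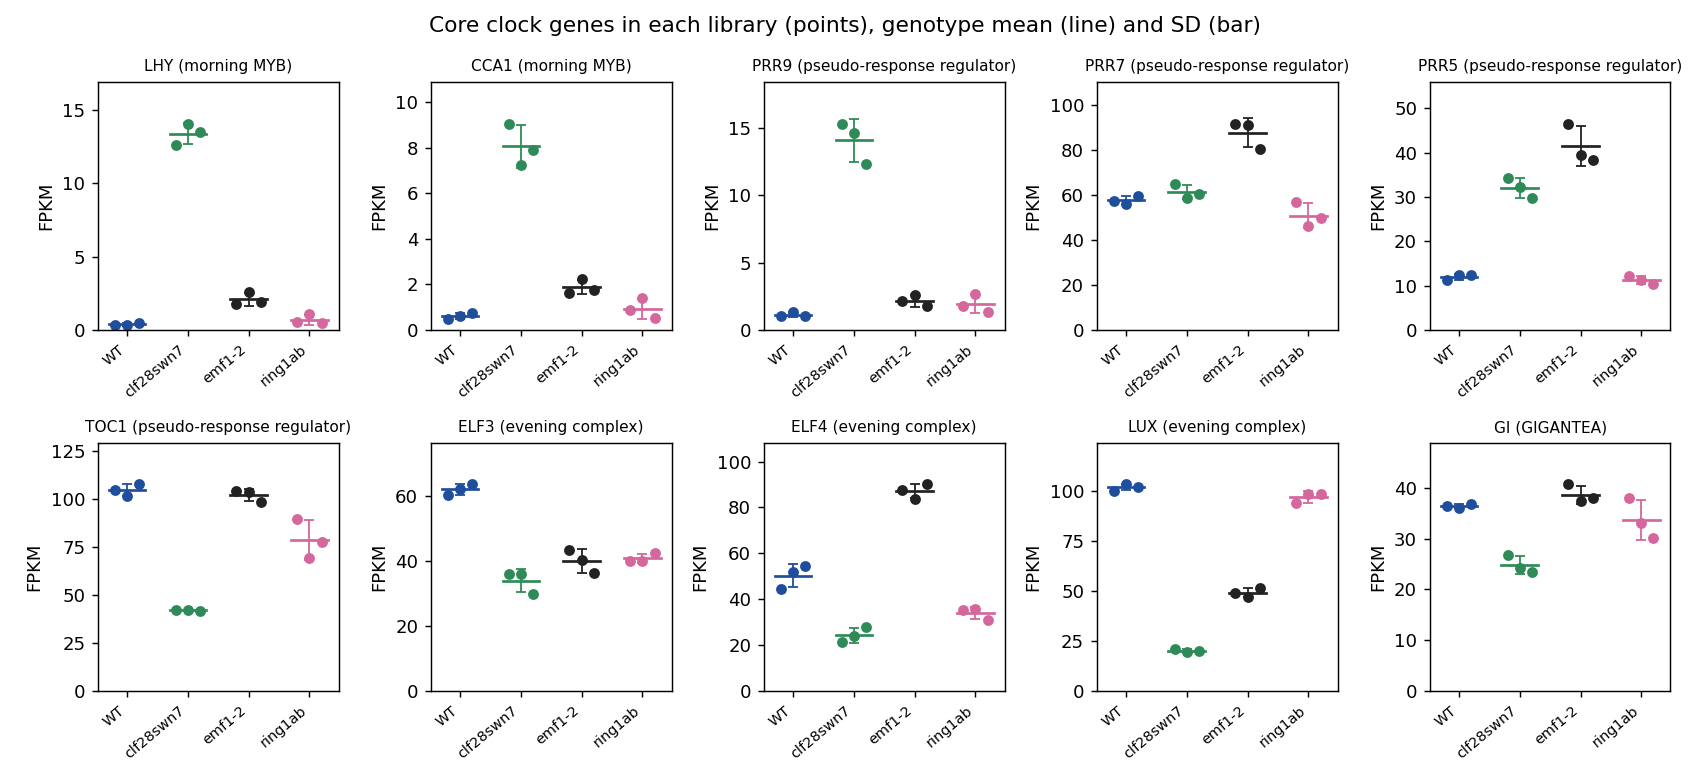
FPKM of the 10 core clock genes (y axis of each panel, from 0) in the 3 libraries of WT, clf28swn7, emf1-2 and ring1ab (x axis). Points are libraries, horizontal lines are genotype means and bars are SDs. LHY, CCA1 and PRR9 were highest in clf28swn7, PRR5, PRR7 and ELF4 were highest in emf1-2, and LUX was lowest in clf28swn7.

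The morning pair was far higher in clf28swn7 than in any other genotype. LHY was at 0.299, 0.359 and 0.459 FPKM in WT, at 12.6, 14.1 and 13.5 in clf28swn7, at 1.77, 2.57 and 1.89 in emf1-2 and at 0.568, 1.08 and 0.445 in ring1ab. The clf28swn7 libraries stood above all others and the emf1-2 libraries above those of WT and ring1ab, whereas ring1ab and WT overlapped. On the FPKM scale the mean of LHY was 35.9 times that of WT in clf28swn7, 5.58 times in emf1-2 and 1.88 times in ring1ab. On the log2(FPKM + 1) scale the difference from WT was 3.39 ± 0.14 (SE) in clf28swn7, 1.16 ± 0.14 in emf1-2 and 0.29 ± 0.14 in ring1ab. As the low WT level of LHY is among the values that led to the choice of the set, these 3 differences are given with no test.

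CCA1, the closest relative of LHY, followed the same order of genotypes. It was at 0.471, 0.611 and 0.760 FPKM in WT, at 9.07, 7.23 and 7.91 in clf28swn7, at 1.63, 2.23 and 1.77 in emf1-2 and at 0.861, 1.38 and 0.501 in ring1ab. Again clf28swn7 and emf1-2 were each separate from WT, and ring1ab overlapped with WT. The log2(FPKM + 1) difference from WT was 2.49 ± 0.16 in clf28swn7, 0.83 ± 0.16 in emf1-2 and 0.22 ± 0.16 in ring1ab. These values are given with no test, as CCA1 reached the minimum FPKM through mutant libraries. The emf1-2 difference was short of the threshold of 1, and passed it with a pseudocount of 0.1 (1.48) or on TPM values (1.03). The ratio of LHY to CCA1 was 0.587 to 0.636 in the WT libraries, 1.39 to 1.95 in clf28swn7, 1.07 to 1.15 in emf1-2 and 0.660 to 0.888 in ring1ab. By these values CCA1 was the more abundant of the pair in WT and ring1ab, and LHY in every clf28swn7 and emf1-2 library. The order is uncertain where the ratio was near 1, in emf1-2 and in ring1ab replicate 3 (0.888). In that ring1ab library LHY rested on an estimated 29.3 fragments and CCA1 on 26.2, and the ratio also depends on the exon length taken for each gene.

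Of the pseudo-response regulators, PRR9, the earliest of the day, was close to LHY and CCA1 in its order of genotypes. PRR9 was at 1.00, 1.32 and 1.03 FPKM in WT, at 15.3, 14.6 and 12.3 in clf28swn7, at 2.14, 2.58 and 1.74 in emf1-2 and at 1.80, 2.69 and 1.31 in ring1ab. Only clf28swn7 stood clear of all other genotypes for this gene, and emf1-2 overlapped with ring1ab. The difference from WT was 2.83 ± 0.16 in clf28swn7, 0.57 ± 0.16 in emf1-2 (adjusted p = 0.00847) and 0.44 ± 0.16 in ring1ab (adjusted p = 0.0523). On the FPKM scale the clf28swn7 mean was 12.6 times that of WT for PRR9 and 13.2 times for CCA1.

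PRR5, which appears in the afternoon, differed from PRR9 in that emf1-2 and not clf28swn7 was highest. It was at 11.2, 12.3 and 12.3 FPKM in WT, at 34.3, 32.2 and 29.7 in clf28swn7, at 46.6, 39.5 and 38.3 in emf1-2 and at 12.2, 11.3 and 10.4 in ring1ab. The libraries of emf1-2, clf28swn7 and the pair of WT and ring1ab formed 3 separate ranges. PRR5 rose in emf1-2 by 1.71 ± 0.09 (limma, adjusted p = 3.66e-08), and differed from WT by 1.35 ± 0.09 in clf28swn7 and by -0.07 ± 0.09 in ring1ab (adjusted p = 0.572).

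PRR7, a morning to midday repressor, was at 57.5, 56.2 and 59.5 FPKM in WT and at 64.9, 58.7 and 60.4 in clf28swn7, ranges that overlapped. It was at 91.7, 90.9 and 80.2 in emf1-2 and at 56.7, 46.0 and 49.8 in ring1ab. The emf1-2 libraries were above all others, with a difference from WT of 0.59 ± 0.09 (adjusted p = 0.000112), short of the threshold of 1. The difference was 0.09 ± 0.09 in clf28swn7, the smallest of the 10 members in that mutant, and -0.18 ± 0.09 in ring1ab (adjusted p = 0.131).

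TOC1, the dusk member of the PRR family, was lower in clf28swn7, at 42.0, 42.3 and 41.5 FPKM against 104.7, 101.5 and 107.8 in WT. It was at 104.4, 103.8 and 98.5 in emf1-2 and at 89.7, 69.2 and 77.5 in ring1ab. The clf28swn7 libraries were the lowest, at 40.1% of the WT mean, ring1ab was between them and WT, and emf1-2 overlapped with WT. The difference from WT was -1.30 ± 0.09 in clf28swn7 and -0.41 ± 0.09 in ring1ab (adjusted p = 0.00374), and it was -0.03 ± 0.09 in emf1-2 (adjusted p = 0.749), where its sign turned on TPM values (0.018). PRR9 was 0.956 to 1.30% of TOC1 in the WT libraries and 29.6 to 36.5% in those of clf28swn7.

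The 3 subunits of the evening complex differed in direction in emf1-2. In clf28swn7 and in ring1ab every library was below those of WT for all 3, by little for LUX in ring1ab (-0.07). The libraries did not overlap with WT for 77.5% of all genes in clf28swn7 and 50.9% in ring1ab, so separation alone says little about the complex. LUX, its DNA-binding subunit, was at 100.2, 103.3 and 102.2 FPKM in WT, at 20.9, 19.2 and 19.8 in clf28swn7, at 48.7, 47.0 and 51.6 in emf1-2 and at 93.7, 98.6 and 98.5 in ring1ab. All genotypes were separate, in the order WT, ring1ab, emf1-2 and clf28swn7. The difference from WT was -2.29 ± 0.06 in clf28swn7, where LUX was the lowest member relative to WT, and -0.07 ± 0.06 in ring1ab (adjusted p = 0.415). In emf1-2, LUX fell by 1.04 ± 0.06 (adjusted p = 9.84e-08), a call that was lost on TPM values (-0.99). The annotated LUX gene shares 1507 bases with AT3G46650 on the other strand, and strand-specific counting is not stated, so reads of the pair may not have been told apart. AT3G46650 was listed at 0.522 to 1.18 FPKM in WT, 1.08 to 1.52 in clf28swn7, 1.26 to 1.88 in emf1-2 and 0.848 to 1.31 in ring1ab.

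ELF4, a small protein that promotes the assembly of the complex, was lower in clf28swn7 and higher in emf1-2. It was at 44.5, 51.7 and 54.4 FPKM in WT, at 21.2, 23.8 and 27.6 in clf28swn7, at 87.7, 83.9 and 90.1 in emf1-2 and at 35.2, 35.7 and 31.0 in ring1ab. No pair of genotypes overlapped. The difference was 0.79 ± 0.11 in emf1-2 (adjusted p = 5.12e-05) and -0.55 ± 0.11 in ring1ab (adjusted p = 0.00229), both short of the threshold. In clf28swn7 it was -1.02 ± 0.11, just past the threshold, and was -0.97 without WT replicate 3 and -0.94 without clf28swn7 replicate 1.

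ELF3, the scaffold of the complex, was lower in all 3 mutants, by less than 1 in each. It was at 60.5, 62.1 and 63.7 FPKM in WT, at 35.8, 36.0 and 29.9 in clf28swn7, at 43.5, 40.4 and 36.3 in emf1-2 and at 40.1, 39.9 and 42.5 in ring1ab. All 9 mutant libraries were below the 3 of WT, and emf1-2 and ring1ab overlapped. The difference was -0.86 ± 0.09 in clf28swn7, which put ELF3 just outside the threshold, -0.62 ± 0.09 in emf1-2 (adjusted p = 8.26e-05) and -0.59 ± 0.09 in ring1ab (adjusted p = 0.000454). On the other strand, ELF3 shares 183 bases with the antisense RNA AT2G08135, which has no level in the expression table, and 24 bases with ALPHA-VPE. ALPHA-VPE was listed at 1.39 to 7.99 FPKM over the 12 libraries. As for LUX, reads of the 2 strands may not have been told apart.

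GI was the most even of the dusk genes. It was at 36.5, 36.2 and 36.8 FPKM in WT, at 26.7, 24.2 and 23.5 in clf28swn7, at 40.8, 37.4 and 38.0 in emf1-2 and at 38.0, 33.1 and 30.1 in ring1ab. The clf28swn7 libraries were the lowest, at 67.9% of the WT mean, and ring1ab spanned WT. The difference was -0.54 ± 0.09 in clf28swn7 and -0.12 ± 0.09 in ring1ab (adjusted p = 0.331), and it was 0.08 ± 0.09 in emf1-2 (adjusted p = 0.424), where it turned to -0.12 with median-of-ratios scaling.

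**Figure D2:**
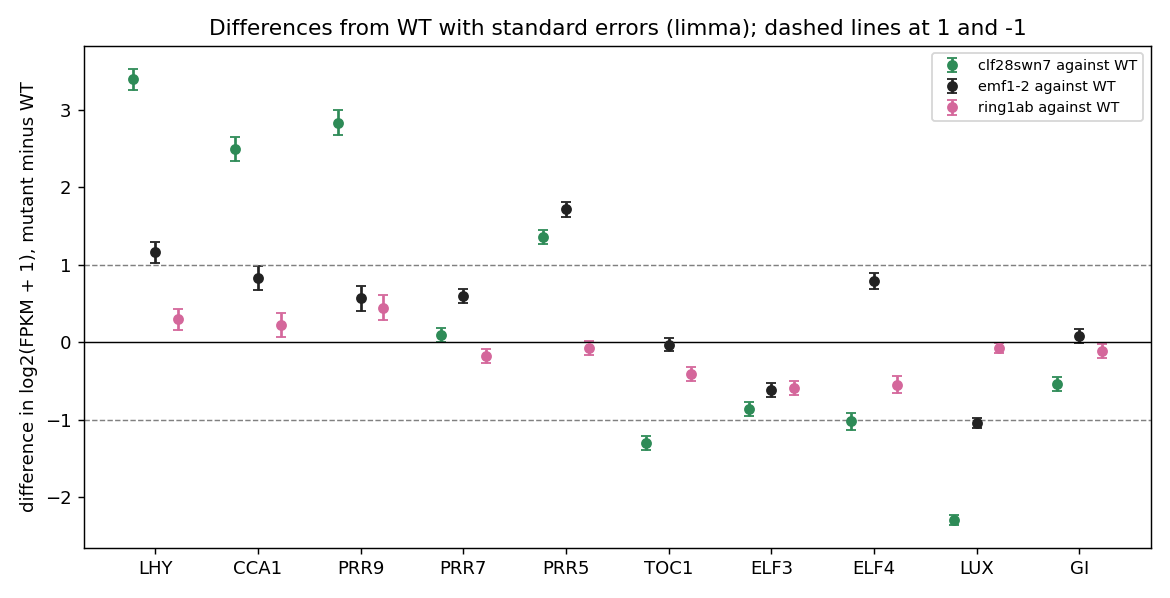
Difference from WT in log2(FPKM + 1) (y axis) of the 10 core clock genes (x axis) in clf28swn7, emf1-2 and ring1ab, each from 3 libraries against 3. Points are limma estimates, bars are standard errors and dashed lines mark the threshold of 1 in size. The clf28swn7 values ran from -2.29 for LUX to 3.39 for LHY, and all ring1ab values were within the dashed lines.

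Taken by mutant, the members split in both directions in clf28swn7. LHY, CCA1, PRR9 and PRR5 were past the threshold on the higher side, 4 of 10, where 15.1% of all tested genes were, and TOC1, LUX and ELF4 on the lower side, 3 of 10, where 12.3% of all were. The libraries of clf28swn7 and WT did not overlap for 9 members, nor for 77.5% of all genes. These counts are a description, as clf28swn7 prompted the choice of the set. The median difference of the members was -0.23, against 0.07 for all genes tested.

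In emf1-2, LHY and PRR5 were past the threshold on the higher side, 2 of 10 members against 13.7% of all genes, and LUX on the lower side, 1 of 10 against 12.4%. By adjusted p alone, 8 of 10 members were under 0.05, against 72.5% of all genes. LHY and CCA1 are in these counts as a description. The libraries did not overlap for 9 members and for 75.4% of all genes, so that these counts set the members little apart from the background. The median difference of the members was 0.58, against 0.19 for all genes. The median over all genes was 0.02 with median-of-ratios scaling, which lowered the differences of the members as well. PRR7, for example, went from 0.59 to 0.39 and LHY from 1.16 to 1.05. The calls for LHY, PRR5 and LUX were kept under that scaling.

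In ring1ab, no member was called by limma in either direction, against 7.16% of all genes on the higher and 1.03% on the lower side. By unadjusted p under 0.05, 4 of 10 members differed (ELF3, ELF4, TOC1 and PRR9), against 46.2% of all genes, and by adjusted p 3 of 10 (ELF3, ELF4 and TOC1), against 36.9%. ELF3, ELF4, TOC1 and LUX were lower in all 3 ring1ab libraries than in all 3 of WT, 4 members whose libraries did not overlap against 50.9% of all genes. The median difference was -0.10, against 0.04 for all genes. Among the ring1ab libraries, replicate 2 had the highest LHY, CCA1 and PRR9 and the lowest TOC1 and PRR7. The 3 comparisons share the WT libraries, and likeness between them is therefore not read as a result.

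Set directly against emf1-2, a difference that holds no WT or clf28swn7 level although the estimate of spread came from all 12 libraries, ring1ab differed by -1.79 ± 0.09 for PRR5 (adjusted p = 3.64e-08) and by -1.34 ± 0.11 for ELF4 (adjusted p = 9.38e-07). These were 2 of 10 members called lower, against 9.05% of all genes. None was called higher, against 14.1% of all, and by unadjusted p under 0.05 LUX was the 1 member that was higher, by 0.97 ± 0.06 (adjusted p = 2.21e-07). LUX passed the threshold with median-of-ratios scaling (1.11) or without emf1-2 replicate 3 (1.00). LHY differed by -0.87 ± 0.14, and passed the threshold with a pseudocount of 0.1 (-1.51), on TPM values (-1.07) or without ring1ab replicate 2 (-1.02). CCA1, at -0.61 ± 0.16, passed it with a pseudocount of 0.1 (-1.04). Both genes reached the minimum FPKM through mutant libraries, those of emf1-2 among them, and are given here with no test. PRR9 (-0.12 ± 0.16, adjusted p = 0.518) and ELF3 (0.030 ± 0.09, adjusted p = 0.779) were far from it, and their signs turned without ring1ab replicate 3 for PRR9 and on TPM values or without emf1-2 replicate 3 for ELF3.

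The balance of dawn and dusk genes gives the pattern in a single value per library. LHY and CCA1 together were 0.269 to 0.405% of the sum of TOC1, LUX, ELF4 and GI in WT, 0.399 to 1.04% in ring1ab, 1.21 to 1.77% in emf1-2 and 19.0 to 19.6% in clf28swn7. The dusk sum was 285.9 to 301.2 FPKM in WT, 236.5 to 256.7 in ring1ab and 109.5 to 112.4 in clf28swn7. In emf1-2 it was 272.0 to 281.6, with LUX lower and ELF4 higher than in WT. The ranges of the percentage did not overlap except between ring1ab and WT. The genes in these sums were chosen with their levels known, and the values are a description.

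**Figure D3:**
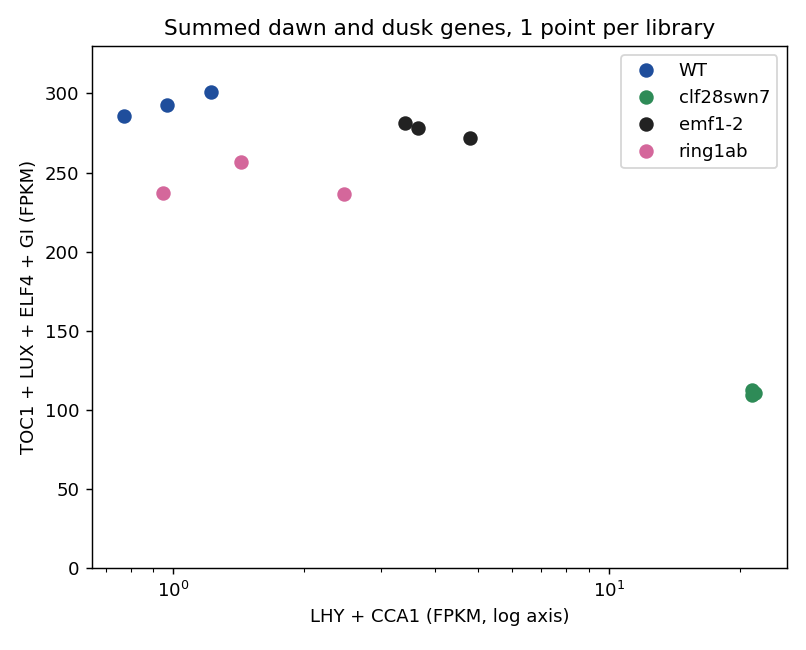
Sum of TOC1, LUX, ELF4 and GI in FPKM (y axis, from 0) against the sum of LHY and CCA1 in FPKM (x axis, log scale), with 1 point per library and 3 libraries each of WT, clf28swn7, emf1-2 and ring1ab. The clf28swn7 libraries sit apart, at 21.3 to 21.7 FPKM of LHY and CCA1 and 109.5 to 112.4 FPKM of the dusk genes.

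Other clock-associated genes were taken as whole lists. The 12 REVEILLE (RVE) and LNK genes, MYB-like relatives of LHY and their co-activators, had 2 members called higher and 2 lower in emf1-2, where 13.7% and 12.4% of all genes were, and 0 higher and 1 lower in ring1ab, where 7.16% and 1.03% were. By unadjusted p under 0.05 alone, 5 of the 12 differed in ring1ab by limma, against 46.2% of all genes. In clf28swn7, described with no test as for the core genes, 6 were past the threshold on the higher and 1 on the lower side, where 15.1% and 12.3% of all genes were. These shares are the background for the lists that follow too. ASG4, a MYB-like gene of this list, was higher in emf1-2 by 3.16 ± 0.23. It was at 0 to 0.372 FPKM in the WT libraries, 7.25 to 15.8 in emf1-2 and 37.6 to 46.2 in clf28swn7. As ASG4 reached the minimum of 1 FPKM through mutant libraries alone, it is given, and counted above, as a description with no test. LNK3 rose in emf1-2 by 1.75 ± 0.12 (adjusted p = 2.91e-07), from 1.23 to 2.19 FPKM in WT to 7.36 to 8.37, and was at 14.1 to 16.1 in clf28swn7. These genes, like LHY, had higher levels in clf28swn7 than in emf1-2, and their libraries did not overlap between genotypes.

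In emf1-2, RVE4, a homologue of the activator RVE8, fell by 1.57 ± 0.14 (adjusted p = 1.54e-06), from 40.4 to 46.5 FPKM in WT to 11.9 to 15.9. RVE7 fell by 1.35 ± 0.12 (adjusted p = 1.88e-06), from 17.0 to 19.1 FPKM in WT to 5.57 to 7.73. The gene called lower in ring1ab was RVE2 (-1.02 ± 0.18, adjusted p = 0.00107), named here after its value was seen, and this call was lost without WT replicate 3 (-0.98), ring1ab replicate 1 (-0.82) or ring1ab replicate 3 (-0.96). The list was thus split in direction within emf1-2, with a median difference of 0.42 against 0.19 for all genes.

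Of 6 close relatives of the members, none was past the threshold in clf28swn7, and 1 was called lower in emf1-2, against 12.4% of all genes. This was ELF4-L4, an ELF4-like gene (-1.02 ± 0.10, adjusted p = 3.9e-06), at 6.81 to 8.56 FPKM against 15.6 to 18.0 in WT. That call was lost on TPM values (-0.997), without WT replicate 2 (-0.97) and without emf1-2 replicate 1 (-0.93). Of 16 other clock regulators, 1 was called higher and 1 lower in emf1-2, shares below the 13.7% and 12.4% of all genes. In clf28swn7, 5 were past the threshold on the lower side, where 12.3% of all genes were, and 0 on the higher side, where 15.1% were. In emf1-2, CHE, a TCP factor that represses CCA1, fell by 2.52 ± 0.13 (adjusted p = 2.36e-08), from 42.3 to 46.5 FPKM in WT to 5.47 to 8.00, and was at 3.75 to 4.78 in clf28swn7. FKF1, a blue-light receptor F-box protein that acts with GI, rose in emf1-2 by 1.22 ± 0.09 (adjusted p = 5.21e-07), from 10.7 to 12.4 FPKM to 27.5 to 28.3, and was at 5.26 to 6.42 in clf28swn7. FKF1 thus lay above WT in emf1-2 and below it in clf28swn7, as ELF4 did.

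Of 10 genes downstream of the clock, 9 were tested, and 2 fell in emf1-2, where 12.4% of all genes did, the growth regulators PIF4 and PIF5, bHLH factors whose transcripts the evening complex represses. PIF4 fell by 3.58 ± 0.11 (adjusted p = 5.24e-10), from 96.9 to 110 FPKM in WT to 6.73 to 9.22, and PIF5 fell by 3.77 ± 0.09 (adjusted p = 1.56e-10), from 61.4 to 65.4 FPKM to 3.24 to 3.94. In clf28swn7 they were at 16.0 to 16.8 and 9.27 to 11.0 FPKM, and 5 of the 9 genes were past the threshold on the lower side, against 12.3% of all. The photoreceptor and light signalling list of 9 genes had none called by limma in emf1-2 or ring1ab. By unadjusted p under 0.05, 3 of them differed in ring1ab, against 46.2% of all genes. In emf1-2, 5 of them did, where 72.5% of all genes were under 0.05 even by adjusted p. In clf28swn7, 2 of the 9 were past the threshold on the higher and 1 on the lower side, against 15.1% and 12.3% of all genes. In ring1ab, 0 of the relatives, the other regulators and the downstream genes were called by limma, where 7.16% of all genes were called higher and 1.03% lower. By unadjusted p under 0.05, 4 of 6 relatives, 5 of 16 regulators and 2 of 9 downstream genes differed there, against 46.2% of all genes. PIF4 differed in ring1ab by -0.54 ± 0.11 (adjusted p = 0.00231). The part of leaf and seed tissue, whose marker sums are given above, in these lists was not tested.

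**Figure D4:**
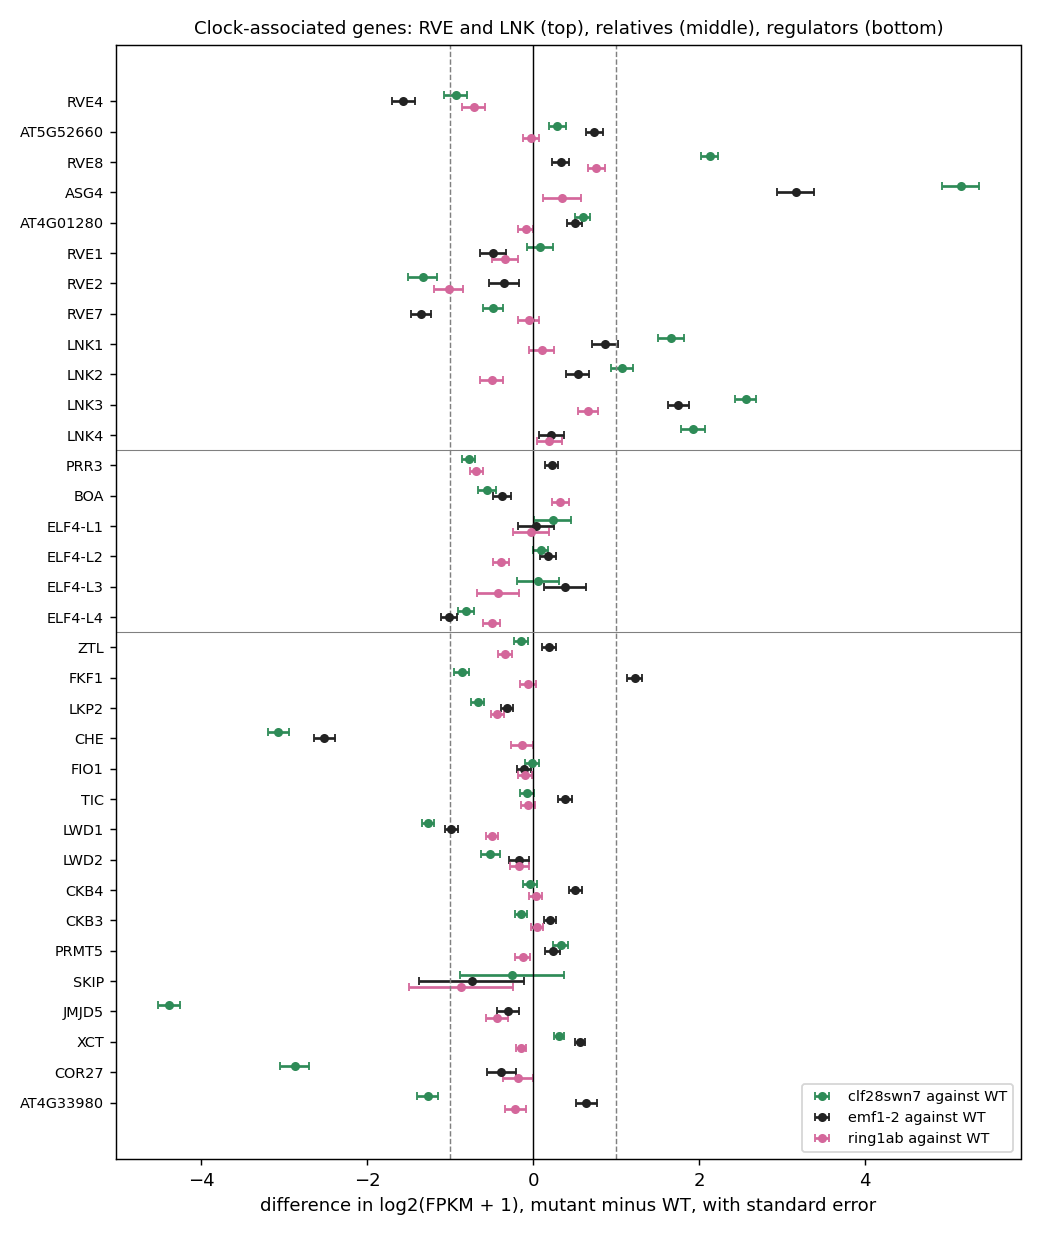
Difference from WT in log2(FPKM + 1) (x axis) of 34 clock-associated genes (y axis) in clf28swn7, emf1-2 and ring1ab, with 12 RVE and LNK genes at the top, 6 relatives of the core genes in the middle and 16 other regulators at the bottom. Points are limma estimates from 3 libraries against 3, bars are standard errors and dashed lines mark 1 in size. ASG4 was the highest in clf28swn7 (5.15) and in emf1-2 (3.16), and CHE the lowest in emf1-2 (-2.52).

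PRR9 and CCA1 lie on the same strand of chromosome 2 with 10411 bases between them (PRR9 at chr2:19232607-19235179, CCA1 at chr2:19245591-19248915, TAIR10.1). The 3 genes in between did not share their levels. ZAT was at 50.2 ± 2.29 FPKM in WT and 50.5 ± 1.21 in clf28swn7, AT2G46810 at 7.36 ± 0.254 and 9.02 ± 1.27, and PSI-P at 358 ± 10.5 and 97.6 ± 7.58 (SD, n = 3). The differences from WT in emf1-2 were -0.40 for ZAT, 0.30 for AT2G46810 and -2.18 for PSI-P, beside 0.57 for PRR9 and 0.83 for CCA1. The higher levels of PRR9 and CCA1 in clf28swn7 were therefore not a feature of every gene of this stretch.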

How the data were processed

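Whole-seedling RNA from 12 libraries, 3 for each of 4 genotypes, was sequenced. Per the labels and the study's methods, reads were aligned by the authors to TAIR10 (HISAT2), and StringTie with ballgown gave the deposited FPKM of 33602 genes in each library. Versions, strand setting and filters are not given in the sources used here. The labels name polyA RNA and a total RNA kit. No raw counts were used, and depth was estimated from the steps of FPKM times length in 8485 single-exon genes above 300 bases. Fragments per gene derived from it use the RefSeq exon length and are approximate.

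From the deposited FPKM, log2(FPKM + 1) was fitted with limma 3.58.1 in R 4.3.3, all 12 libraries in one fit without a block. Genes at 1 FPKM or more in at least 3 libraries were tested (21227). P-values were adjusted over them by Benjamini-Hochberg, and tests were two-sided. P-values set each difference against the spread between biological replicates, estimated over all 12 libraries. They do not cover a difference between genotypes in the hour of collection. The script was tested on simulated data. The 10 genes and all lists were chosen with earlier results of these data known. Named outside the 10 were genes of each list called in emf1-2 or ring1ab, at most 4 per list by size of difference, and the 5 genes most correlated with LHY and with GI. Genes were placed on RefSeq TAIR10.1, whose chromosome 1 has 30427671 bases (32835 matched). Python 3.11.15, pandas 2.3.3 and matplotlib 3.10.9 were used. Alternatives were a pseudocount of 0.1, no filter, separate fits, eBayes with trend, adjusted p, median-of-ratios scaling, TPM, a replicate block and leaving out each library.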

Additional observations from a re-analysis of the deposited data

How the results depend on the processing

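The 30 differences from WT of the 10 genes, their 10 differences between ring1ab and emf1-2, and 11 differences of named list genes were recomputed under up to 20 alternatives. Of 1010 values, 988 kept their direction and side of the threshold, 8 passed it, 9 missed it and 5 turned sign. Many of the 988 could not move. Adjusted p, no filter, separate fits, eBayes with trend and the replicate block leave the difference itself unchanged and alter only its error or p. The same holds for leaving out a library of a genotype outside the comparison. The 988 are therefore no measure of how stable the differences are. TPM values turned TOC1 in emf1-2 to 0.018 and brought LUX in emf1-2 to -0.99, so that 0 members were lower in emf1-2, and median-of-ratios scaling turned GI in emf1-2 to -0.12. Between ring1ab and emf1-2, PRR9 turned to 0.038 without ring1ab replicate 3 (-0.30 to 0.038 over single libraries left out), and ELF3 to -0.035 on TPM values and -0.037 without emf1-2 replicate 3 (-0.037 to 0.090). In that comparison 1 member (LUX) was higher with median-of-ratios scaling, 0 to 1 were with single libraries left out, and 4 were lower with a pseudocount of 0.1. CCA1, ELF4, ELF4-L4, RVE2 and LHY crossed the threshold as given beside their values, and the cause was not tested. With single libraries left out, LHY ran from 3.35 to 3.43 in clf28swn7, from 1.05 to 1.23 in emf1-2 and from 0.14 to 0.40 in ring1ab, where CCA1 ran from 0.054 to 0.39 and PRR9 from 0.27 to 0.60, each lowest without ring1ab replicate 2 and highest without ring1ab replicate 3. Equal replicate numbers showed no pairing over all genes, as 0 of 18 same-numbered pairs had deviations correlated above 0.1 (-0.142 to 0.0782). WT replicate 1 and ring1ab replicate 3, of different numbers, reached 0.21. A check over all genes cannot show a link between libraries that is confined to clock genes. A replicate block left 4 members higher and 3 lower in clf28swn7 and changed no call. The few fragments of LHY and CCA1 in WT limit the precision of their ratios, and 1 time point cannot separate phase from level.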

Other observations

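Among the clock-associated genes outside the naming rule, picked here after their values were seen, JMJD5, a JmjC protein of the evening that acts in the clock, was far lower in clf28swn7 than in the other genotypes, at 1.89 FPKM on average against 59.6 in WT (difference -4.39 ± 0.13, SE). It was at 48.1 FPKM in emf1-2 and 44.5 in ring1ab. COR27, a cold-regulated gene that modulates the clock, was at 7.03 FPKM in clf28swn7 against 57.4 in WT, 44.0 in emf1-2 and 51.4 in ring1ab. On the higher side, RVE8, a MYB-like activator of evening genes, was at 8.92 FPKM in clf28swn7 against 1.27 in WT, 1.87 in emf1-2 and 2.86 in ring1ab, and its co-activator LNK1 at 32.0 against 9.49, 18.0 and 10.4.

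The genes whose log2(FPKM + 1) followed LHY most closely over the 12 libraries were IPK1 (Pearson r = 0.996), AT3G04920 (0.995), KIN1 (0.992), M10 (0.991) and PYL11 (0.99). KIN1, a cold- and abscisic acid-induced gene, was at 635 FPKM in clf28swn7, 22.2 in emf1-2, 6.58 in ring1ab and 4.21 in WT, and PYL11 was listed at 0 in WT. Those closest to GI were NS2 (0.978), AT3G62010 (0.976), bZIP7 (0.970), ARF2 (0.970) and AT1G17255 (0.966). The libraries fall into 4 genotypes, so that these coefficients mostly rank genotype means, and they are given as a description with no test.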
